A study of Mus musculus with 23 samples.

Results

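The genes described here encode the pathway that carries the insulin signal from the cell surface to FOXO transcription factors and to mTOR. They are 47 listed genes, and all 47 were found among the 45706 genes of the deposited table by matching symbols to Ensembl identifiers. The libraries came from hippocampal RNA of female mice, in 2 genotypes. One was Ins2+/+ (WT, 12 libraries) and the other was Ins2-/- (KO, 11 libraries), which lacks one of the mouse's insulin genes. The labels give no strain, age or state of the other insulin gene Ins1, and the title places the study in work on insulin made in the brain, learning and memory. Nothing in the labels says whether libraries of a genotype came from separate animals, so p-values measure the spread between these libraries.

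Insulin and IGF1 bind the receptor tyrosine kinases INSR and IGF1R, which phosphorylate the IRS and SHC adaptor proteins. IRS proteins recruit PI3K, a lipid kinase with a catalytic and a regulatory subunit, whose product lets PDPK1 and mTORC2 activate AKT. AKT inhibits GSK3 and the TSC complex and keeps FOXO factors out of the nucleus, and loss of TSC activity allows RHEB to activate mTORC1, which drives protein synthesis through S6 kinases and 4E-BPs. Most of this control is by phosphorylation, which RNA sequencing does not measure. FOXO factors also raise transcription of Irs2 and Insr when insulin is low, so part of the pathway is read out in RNA. In the hippocampus the pathway is known for its part in synaptic plasticity and neuronal metabolism.

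Library totals ran from 13792274 to 22953261 counts. No Ins2 count was present in any of the 11 KO libraries, where a count of 0 allows up to 3 counts per library. WT libraries held 26 in total, in 7 of 12 libraries and 18 of them in WT library 17, so the labels were checked only weakly by the deleted gene. KO library 8 stood apart by tissue markers. Its 10 hypothalamic marker genes (among them Hcrt, Pmch, Avp and Oxt) summed to 1456 CPM (counts scaled to library size, with totals adjusted by edgeR's TMM method), against 1.16 to 8.49 CPM in the other 22 libraries. Its 5 dentate gyrus markers summed to 63 CPM, against 206 to 463 CPM. The 10 choroid plexus markers summed to 3201 to 20289 CPM in 5 libraries (WT 14 and 17, KO 2, 6 and 12), and to 31.8 to 97.2 CPM in the 17 remaining libraries. Leaving out KO library 8 changed the sign of the log2 fold change in 11 of the 46 tested members, none of them called (Sos1, Pik3cd, Pik3r3, Gsk3a, Gsk3b, Tsc1, Mlst8, Akt1s1, Tbc1d4, Trib2 and Socs3). In bulk tissue, fewer cells of a type and less RNA per cell cannot be told apart.

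Across the pathway, no gene passed the test between KO and WT hippocampus, and the ranges of the 2 genotypes overlapped for all 47 (they did not for 0.0126% of all tested genes). Of 46 members tested with edgeR's quasi-likelihood test, 0 passed a Benjamini-Hochberg adjusted p of 0.05, where 0.0126% of all 15828 tested genes did. DESeq2 and limma voom with quality weights also called 0 members, beside 0.0253% and 0.0316% of all genes. At an unadjusted p below 0.05 edgeR gave 2 members, Grb10 and Deptor, both higher in KO. That is 4.35% of the members, beside 5.74% of all tested genes, and for higher in KO alone 4.35% beside 3.41%. DESeq2 gave 1 such member, Deptor (2.17%, beside 6.17% of all genes). Voom gave 9 (19.6%, beside 17.4% of all genes). Rheb and Deptor were higher (4.35%, beside 7.47%), and Rictor, Irs2, Grb14, Tsc2, Pdpk1, Foxo1 and Rptor were lower in KO (15.2%, beside 9.96%). Leaving out KO library 22 gave 6 with edgeR (13%, beside 11.3%), and 0 passed the adjusted threshold (0.0126% of all genes did). The median log2 fold change (KO against WT) was -0.019 over the members and 0.0031 over all tested genes. It was positive for 18 members and negative for 28 (60.9% lower, beside 49% of all tested genes), and with voom for 13 and 33 (71.7% lower, beside 49.6% of all tested genes).

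The intervals limit how large a difference could have gone unseen. For 31 of 46 members the whole 95% interval of the log2 fold change lay within 0.25 of 0, a 1.19-fold difference either way, and for 41 it lay within 0.5, or 1.41-fold. The shares were 67.4% and 89.1%, against 47.4% and 77.6% of all tested genes. The widest intervals among named members belonged to Socs3, Grb10, Deptor, Foxo6 and Enpp1. The biological coefficient of variation, edgeR's measure of spread between libraries beyond counting error, had a median of 11.9% over the members and 14.6% over all tested genes. It ran from 6.75% for Grb2, an adaptor that links receptors to Ras signalling, to 47.5% for Socs3, a feedback inhibitor of cytokine and insulin receptors.

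**Figure D1:**
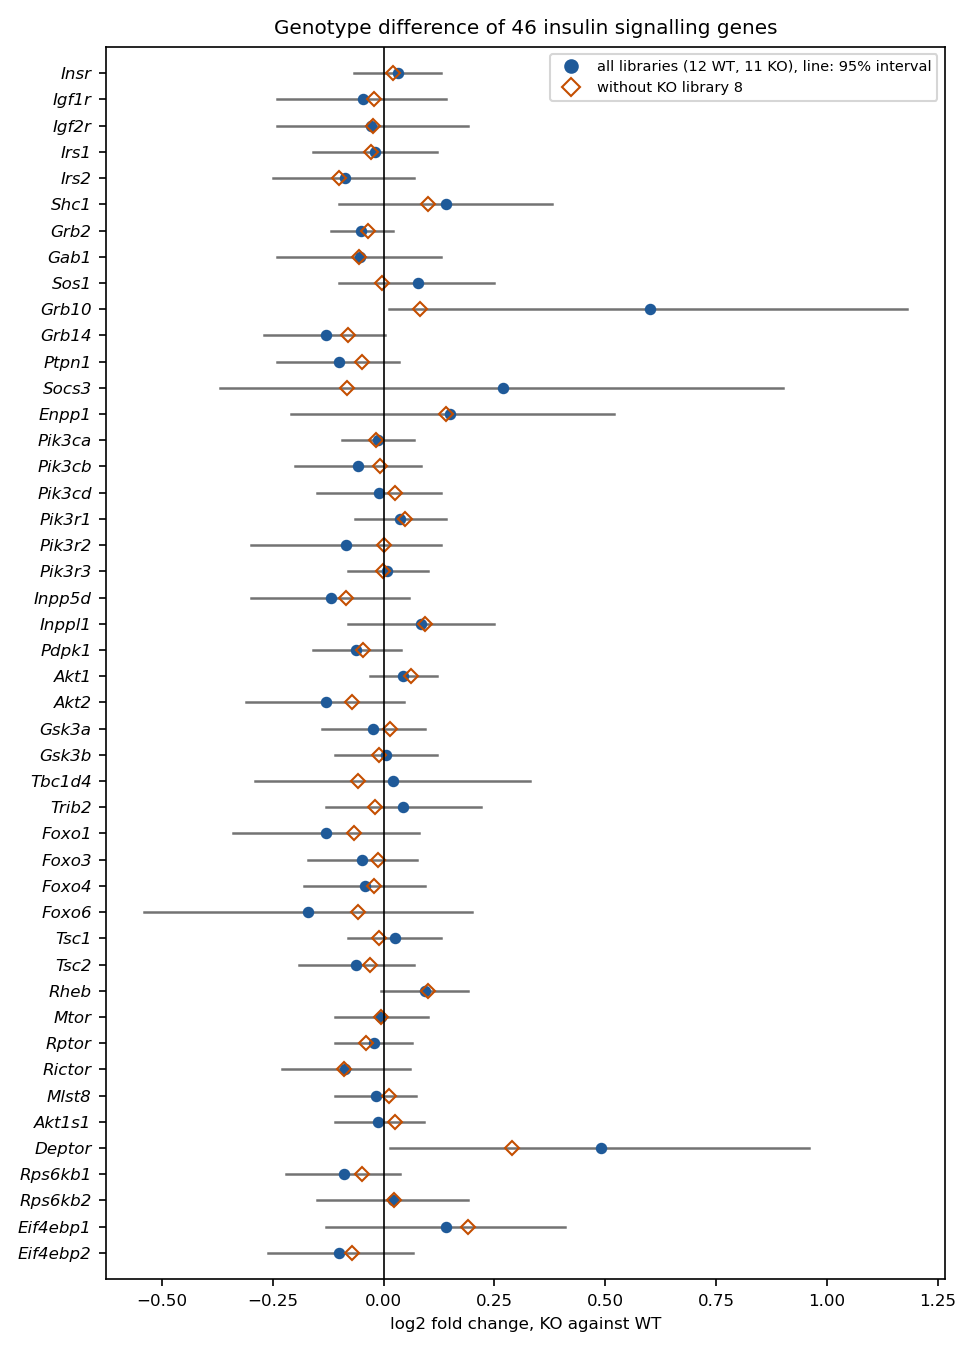
Log2 fold change of KO against WT for the 46 tested members (x axis), ordered by role from receptors at the top to 4E-BPs at the bottom; circles and lines are the edgeR estimate and its 95% interval over all 23 libraries, and open diamonds the estimate without KO library 8. Most circles lie close to 0, and Grb10 moves from 0.60 to 0.082 and Deptor from 0.49 to 0.29 when that library is left out.

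The receptors came first. Insr (ENSMUSG00000005534, chromosome 8, 3122061 to 3279617, minus strand, GRCm38, GENCODE M21) encodes the insulin receptor. Its level was 52.8, 57.5 and 63.6 CPM (lowest, median and highest library) in WT and 52, 58 and 66.7 CPM in KO, so the groups overlapped over nearly their whole range. The log2 fold change was 0.033 (SE 0.0479, 95% interval -0.066 to 0.13, edgeR adjusted p = 0.874). Igf1r, the related IGF1 receptor, had 18.5, 23.5 and 27.8 CPM in WT and 18.3, 21.4 and 31.5 CPM in KO. KO against WT, the log2 fold change was -0.047 (SE 0.0928, 95% interval -0.24 to 0.14, edgeR adjusted p = 0.908). It was -0.022 without KO library 8 and -0.10 without that library and the 5 choroid plexus libraries. Igf2r, which carries IGF2 and mannose 6-phosphate proteins to lysosomes and is no kinase, had 45.9, 52.2 and 82.2 CPM in WT and 42.3, 49.5 and 80.5 CPM in KO. Its 3 highest libraries were WT library 17 (82.2 CPM), KO library 12 (80.5 CPM) and KO library 6 (67 CPM). These were also the 3 libraries with the highest choroid plexus marker sums, at 20289, 13915 and 9423 CPM, and the part of that tissue in the Igf2r values was not tested. The log2 fold change of Igf2r was -0.028 over all libraries and -0.12 without KO library 8 and the 5 choroid plexus libraries.

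The insulin receptor substrates dock PI3K onto the activated receptor. Irs1 had 15.3, 19.5 and 23 CPM in WT and 16.1, 19.5 and 23.1 CPM in KO. The groups covered the same range, and the log2 fold change was -0.020 (SE 0.067, 95% interval -0.16 to 0.12, edgeR adjusted p = 0.943). Irs2, the substrate whose gene FOXO factors activate, had 41.2, 49.2 and 64.7 CPM in WT and 41.4, 44.8 and 63 CPM in KO. In Irs2 the log2 fold change was -0.088 (SE 0.0762, 95% interval -0.25 to 0.069, edgeR adjusted p = 0.802). The highest Irs2 values came from WT library 23 and KO library 22, 1 of each genotype. Both genes overlap exons of a transcript on the opposite strand, and the use of strand in counting is not given in the sources used here.

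Irs4 was the one member left out by the filter on low counts. This X-linked substrate (ENSMUSG00000054667, chromosome X, 141710998 to 141725263, minus strand) is known in the brain for its expression in the hypothalamus. KO library 8 held 2033 Irs4 counts, or 122 CPM, and the other 22 libraries held 226 in total, at most 105 in one library. The WT libraries had 0, 0.16 and 4.72 CPM, and 3 of them had 0 counts. The KO libraries had 0, 0.333 and 122 CPM, and without library 8 their highest was 1.34 CPM. With no filter Irs4 entered the edgeR test, where 2 of 47 members (Irs4 and Deptor) had an unadjusted p below 0.05, beside 6.02% of all genes. With a mean of at least 50 counts as filter there were 3 of 45 (Irs4, Deptor and Grb10), beside 5.92%. Irs4 met that filter only through KO library 8, and in both fits its p repeats the value of that library. It therefore says nothing about genotype. Without that library the KO mean of Irs4 was 0.443 CPM, against 0.583 CPM in WT. Outside KO library 8 the gene was low in both genotypes, and the highest of these libraries was WT library 15. Its sum of hypothalamic markers was 6.11 CPM, below only KO library 4 among these 22 libraries. KO library 4 had a sum of 8.49 CPM and 0.435 CPM of Irs4. The part of hypothalamic tissue in the Irs4 values was not tested.

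The promoters of the 3 substrates are shown because they share a stretch that the choice of genes did not use. RefSeq promoter windows (250 bases before to 50 after a start, GRCm38.p6) were matched for 41 of 47 members. The E-box CACGTG, a motif bound by basic helix-loop-helix factors such as TFEB, was found in 5 of these 41 (Igf2r, Irs1, Irs2, Irs4 and Rheb), 12.2%, and in 8.09% of all 27025 genes with a window. The 3 sequences below are on the minus strand, 5′ to 3′, with the E-box in capitals, at chr1:82291519-82291618, chr8:11008938-11009037 and chrX:141725336-141725435.
Irs1: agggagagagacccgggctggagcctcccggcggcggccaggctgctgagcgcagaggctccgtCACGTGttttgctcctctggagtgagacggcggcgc
Irs2: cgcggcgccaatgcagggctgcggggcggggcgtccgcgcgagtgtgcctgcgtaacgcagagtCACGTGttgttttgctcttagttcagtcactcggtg
Irs4: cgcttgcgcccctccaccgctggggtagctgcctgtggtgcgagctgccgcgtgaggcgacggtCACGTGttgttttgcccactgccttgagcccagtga
The E-box begins 115, 44 and 154 bases before the RefSeq start of Irs1, Irs2 and Irs4. All 3 windows hold the 10 bases gtCACGTGtt, found in 25 of 27025 genes. Irs2 and Irs4 share the 17 bases gtCACGTGttgttttgc, and these 2 were the only genes whose windows hold that stretch on either strand. The FOXO motif GTAAACA was found in 1 of 41 members, Akt1 (2.44%, against 4.05% of all genes), and GTAAATA in 1, Akt2 (2.44%, against 3.51%), on either strand. The GC box GGGCGG was in 32 of 41 members (78%, against 38.2%) and CCAAT in 15 (36.6%, against 41.1%). The 27025 genes were not limited to those that passed the filter on low counts, as all members but Irs4 did. These shares therefore do not compare the members with genes of like expression. A match describes letters in a window and is no evidence of binding. Irs1 and Irs2, which carry the stretch, were expressed in every library, and Irs4, which carries it too, was high in KO library 8 alone.

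Among the other adaptors, Shc1, which leads to Ras and MAP kinases, had 8.26, 9.65 and 13.4 CPM in WT and 8.94, 9.89 and 17.2 CPM in KO. For Shc1 the log2 fold change was 0.14 (SE 0.116, 95% interval -0.10 to 0.38, edgeR adjusted p = 0.801). KO library 12, with much choroid plexus RNA, was its highest library. The log2 fold change of Shc1 was 0.10 without KO library 8 and 0.10 with the choroid plexus score as covariate. Without KO library 8 and the 5 choroid plexus libraries it was -0.0007. Grb2 and Sos1, the adaptor and exchange factor that act on Ras, and Gab1, a docking protein, had log2 fold changes of -0.051, 0.078 and -0.054. KO library 8 had 115 CPM of Sos1, above the 57.6 to 81.4 CPM of the other 22 libraries. Without it, Sos1 had a log2 fold change of -0.0037.

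Among the inhibitors at the receptor, Grb10 had the largest log2 fold change of the 46 tested members over all libraries, though not without KO library 8. Grb10 (ENSMUSG00000020176, chromosome 11, 11930508 to 12038683, minus strand) is an imprinted gene whose product binds the insulin and IGF1 receptors, dampens their signal, and is a substrate of mTORC1. WT libraries had 24.1, 31.4 and 54.2 CPM. KO libraries had 27.5, 34.9 and 206 CPM, and the last value was that of library 8. The highest of the other KO libraries was library 4 at 44.6 CPM, inside the WT range, whose top was WT library 15. Both libraries also had the highest hypothalamic marker sums apart from KO library 8. The part of that tissue in the Grb10 values was not tested. Over all libraries Grb10 had a log2 fold change of 0.60 (SE 0.283, 95% interval 0.011 to 1.18, edgeR p = 0.0461, adjusted p = 0.781). Without KO library 8 it was 0.082 (edgeR p = 0.463). With all libraries it was 0.075 with DESeq2, which replaced the outlying count of KO library 8, and 0.20 with voom, which weights libraries by quality. Socs3 had 0.336, 1.1 and 1.99 CPM in WT and 0.474, 1.14 and 4.44 CPM in KO, with library 8 again the highest. Its log2 fold change of 0.27 (SE 0.309, 95% interval -0.37 to 0.90, edgeR adjusted p = 0.842) went to -0.082 without that library.

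Of the remaining inhibitors, Enpp1, a membrane phosphodiesterase that can inhibit the insulin receptor, had 3.69, 5.55 and 9.7 CPM in WT and 3.5, 6.28 and 9.72 CPM in KO. Enpp1 had a log2 fold change of 0.15 (SE 0.176, 95% interval -0.21 to 0.52, edgeR adjusted p = 0.84), and 0.14 without KO library 8. Choroid plexus libraries KO 6 and KO 12 had 9.72 and 8.74 CPM of Enpp1, while WT 14, WT 17 and KO 2 had 6.83, 6.02 and 4.52 CPM. WT library 15, with a choroid plexus sum of only 97.2 CPM, had 9.7 CPM. The log2 fold change of Enpp1 was 0.10 with the choroid plexus score as covariate. Without KO library 8 and the 5 choroid plexus libraries it was 0.023. Grb14, the relative of Grb10 that also binds the receptor, had 24.8, 28 and 32 CPM in WT and 17.5, 26.5 and 28.8 CPM in KO. Library 8, at 17.5 CPM, was below every other library, so this library held the highest Grb10 and the lowest Grb14 level. Grb14 had a log2 fold change of -0.13, and -0.081 without library 8. Ptpn1, the phosphatase that removes phosphate from the receptor, had a log2 fold change of -0.10 over all libraries and -0.050 without library 8, neither past the threshold.

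**Figure D2:**
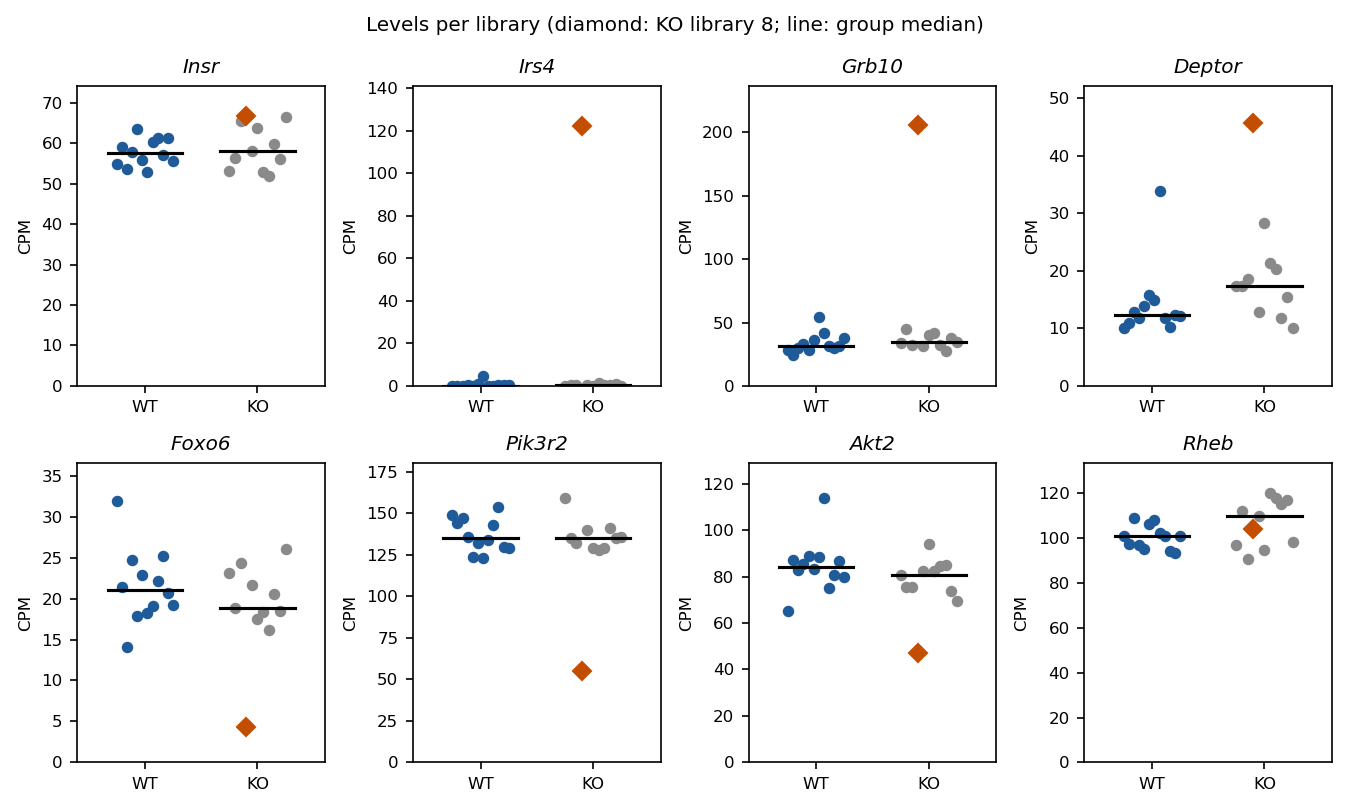
CPM (y axis, from 0) of 8 members in each WT library (12 points) and each KO library (11 points); the diamond marks KO library 8 and the line the group median. The diamond is far above the other points for Irs4 and Grb10 and below them for Foxo6, Pik3r2 and Akt2. The remaining KO points mostly share the range of the WT points, except for Rheb. There KO libraries 4, 9, 13, 16, 18 and 21 lie above the highest WT point and KO library 6 below the lowest.

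For PI3K, the 6 subunits had log2 fold changes from -0.086 to 0.037, and 0 of 6 had an unadjusted p below 0.05 with edgeR, beside 5.74% of all tested genes. Without KO library 8, Pik3cd went from -0.011 to 0.025 and Pik3r3 from 0.0083 to -0.0018. Levels between genes were compared as CPM per kilobase of exon. Among the catalytic subunits, Pik3ca (8.03 ± 0.363 CPM per kb in WT, SD, n = 12) was above Pik3cb (6.04 ± 0.448), and Pik3cb above Pik3cd (4.29 ± 0.31), in 23 of 23 libraries each. Pik3cd encodes the subunit best known from leukocytes. Among the regulatory subunits, Pik3r2 (32.8 ± 2.43 CPM per kb in WT) was above Pik3r3 (10.2 ± 0.658) in 23 of 23 libraries. Pik3r3 and Pik3r1 (10.1 ± 0.84) could not be ordered, since Pik3r3 was higher in 12 of 23 libraries, and with the length of the longest transcript in place of all exons Pik3r1 was higher in 23 of 23. KO library 8 had 54.9 CPM of Pik3r2 against 123 to 159 CPM in the other 22 libraries. There the ratio of Pik3r2 to Pik3r3 was 1.16, the lowest of the KO libraries, whose median was 3.09 and WT median 3.18. Without that library the log2 fold change of Pik3r2 went from -0.086 to -0.0001.

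Phosphatases that remove the PI3K product were measured for the SHIP family. Inppl1, the broadly expressed member, was above Inpp5d, the member found in blood cells and microglia, in 23 of 23 libraries. The WT levels were 4.47 ± 0.563 and 1.58 ± 0.231 CPM per kb (SD, n = 12). Inpp5d had a log2 fold change of -0.12 and Inppl1 of 0.084. The 9 microglial markers summed to 345 to 487 CPM in WT and 317 to 476 CPM in KO. With edgeR, 0 of the 9 passed the adjusted threshold, beside 0.0126% of all tested genes.

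Downstream of PI3K, Akt1 had 128, 140 and 151 CPM in WT and 132, 147 and 154 CPM in KO. Akt1 had a log2 fold change of 0.044 (SE 0.037, 95% interval -0.032 to 0.12, edgeR adjusted p = 0.799). Akt2, the isoform known for insulin-driven glucose uptake, had 65.1, 84.3 and 114 CPM in WT and 47.1, 80.6 and 94.1 CPM in KO. The lowest value was that of KO library 8 and the highest that of WT library 17. For Akt2 the log2 fold change was -0.13 (SE 0.0868, 95% interval -0.31 to 0.046, edgeR adjusted p = 0.781), and -0.072 without library 8. Akt1 was above Akt2 per kilobase in 23 of 23 libraries, with a ratio of 2.07 to 3.93 in WT (median 2.89) and 2.49 to 4.87 in KO (median 3.23). Other AKT isoforms were not analysed here. Pdpk1, the kinase that activates AKT, had a log2 fold change of -0.063.

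Of the direct AKT targets, Gsk3b, a kinase of glycogen synthase and tau, had 165, 182 and 220 CPM in WT and 168, 179 and 223 CPM in KO. Its log2 fold change was 0.0058 (SE 0.055, 95% interval -0.11 to 0.12, edgeR adjusted p = 0.98), and -0.011 without KO library 8. Per kilobase its relative Gsk3a was higher in 23 of 23 libraries, by 2.35 to 3.41 times in WT. Gsk3a had a log2 fold change of -0.025, and 0.014 without KO library 8. Tbc1d4, which holds GLUT4 vesicles inside the cell until AKT phosphorylates it, was a low member, at 4.1 to 11.9 CPM in WT and 6.8 to 14 CPM in KO. Its log2 fold change was 0.020, and -0.058 without KO library 8. Trib2, of the Tribbles pseudokinases, had 0.044 on the same scale, and its highest library was KO library 8 at 50.5 CPM against 25.9 to 39.2 CPM. Without that library Trib2 had -0.020.

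The 4 FOXO factors had log2 fold changes from -0.17 to -0.043, and 0 of 4 passed the threshold (0.0126% of all tested genes did). At an unadjusted p below 0.05 the count was also 0 of 4 with edgeR, beside 5.74% of all tested genes, and 1 of 4 with voom, Foxo1 at -0.16, beside 17.4%. Foxo1 had 49.3, 59 and 71.5 CPM in WT and 31.3, 53.4 and 72.6 CPM in KO (log2 fold change -0.13, SE 0.102, 95% interval -0.34 to 0.079, edgeR adjusted p = 0.791). Foxo3 had 63.6, 75.6 and 88.3 CPM in WT and 59.2, 74.6 and 85.1 CPM in KO (-0.048, SE 0.0593, 95% interval -0.17 to 0.075, edgeR adjusted p = 0.853). Foxo6, known for its expression in hippocampal neurons and a role in memory, had 14.1, 21.1 and 31.9 CPM in WT and 4.32, 18.9 and 26 CPM in KO (-0.17, SE 0.18, 95% interval -0.54 to 0.20, edgeR adjusted p = 0.827). KO library 8 was the lowest library for all of these 3 genes. Without it the log2 fold changes were -0.067 for Foxo1, -0.012 for Foxo3 and -0.059 for Foxo6.

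The order of the FOXO factors by level was only partly fixed. Foxo3 (10.2 ± 1.03 CPM per kb in WT, SD, n = 12) was above Foxo6 (8.2 ± 1.73) in 22 of 23 libraries, WT library 1 being the exception. Foxo6 was above Foxo4 (7.37 ± 0.927) in 13 of 23 libraries, and Foxo4 above Foxo1 (6.82 ± 0.825) in 18 of 23. Foxo6 was above Foxo1 in 20 of 23 libraries, the exceptions being WT libraries 5 and 11 and KO library 8. Foxo6 and Foxo4 thus could not be ordered. In KO library 8, Foxo3 was 4.73 times Foxo6, against a KO median of 1.36 and a WT range of 0.813 to 1.87.

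For the TSC complex, which restrains mTORC1, Tsc2 was above Tsc1 per kilobase in 23 of 23 libraries, by a WT median of 2.04 times. Their log2 fold changes were -0.063 and 0.025, and without KO library 8 they were -0.032 and -0.010. Rheb, the GTPase that TSC acts on (ENSMUSG00000028945, chromosome 5, 24802823 to 24842624, minus strand), had 93.2, 101 and 109 CPM in WT and 90.5, 110 and 120 CPM in KO. KO libraries 4, 9, 13, 16, 18 and 21 (110 to 120 CPM) were above the highest WT library. KO library 6 (90.5 CPM) was below the lowest. The log2 fold change was 0.093 (SE 0.0477, 95% interval -0.0059 to 0.19, edgeR p = 0.0642, adjusted p = 0.781). Without KO library 8 and the 5 choroid plexus libraries, 10 WT libraries had 93.2, 99 and 109 CPM and 7 KO libraries 98, 115 and 120 CPM. There the log2 fold change was 0.18 (edgeR p = 7.37e-04, adjusted p = 0.414). In that comparison 3 of 46 members had an unadjusted p below 0.05 (6.52%, beside 8.05% of all genes tested), and 0 passed the adjusted threshold (0.0125% of all genes did). These were Rheb, Deptor and Grb14, the last with a log2 fold change of -0.11 (edgeR p = 0.03, adjusted p = 0.614). In the same libraries the 5 dentate gyrus markers summed to 250 to 463 CPM in WT and 206 to 437 CPM in KO. The part of hippocampal subregions in these fold changes was not tested.

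Mtor, the kinase at the core of both mTOR complexes, had 104, 125 and 140 CPM in WT and 109, 122 and 148 CPM in KO. Between genotypes the log2 fold change was -0.0055 (SE 0.0509, 95% interval -0.11 to 0.10, edgeR adjusted p = 0.979). Rptor and Rictor, which define mTORC1 and mTORC2, had fold changes of -0.022 and -0.087 on the log2 scale. Mlst8, a subunit of both complexes, and Akt1s1, the mTORC1 inhibitor PRAS40 that AKT releases, had -0.017 and -0.012, and 0.012 and 0.026 without KO library 8. Per kilobase the WT order was Akt1s1 (13.5 ± 0.651), Mtor (12.2 ± 1.02), Mlst8 (8.01 ± 0.564), Rptor (6.25 ± 0.259), Rictor (4.25 ± 0.497) and Deptor (1.6 ± 0.721 CPM per kb, SD, n = 12). Akt1s1 was above Mtor in 18 of 23 libraries. Mtor was above Mlst8 and Rptor above Rictor in 23 of 23. With the length of the longest transcript, Rptor came before Mlst8 in 23 of 23 libraries.

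Deptor, an inhibitor bound to both mTOR complexes, was the other member with an unadjusted p below 0.05. It lies on chromosome 15 (ENSMUSG00000022419, 55112317 to 55259271, plus strand). WT libraries had 10.1, 12.2 and 33.8 CPM and KO libraries 10.1, 17.4 and 45.6 CPM. The groups overlapped over most of their range. The 3 highest values were those of KO library 8 (45.6 CPM), WT library 17 (33.8 CPM) and KO library 12 (28.3 CPM), the first with hypothalamic markers and the others with the most choroid plexus RNA. The next were KO libraries 13 and 16, at 21.3 and 20.4 CPM. Their choroid plexus sums of 86.1 and 89.6 CPM were near the top of the 31.8 to 97.2 CPM of the 17 low libraries. The part of either tissue in the Deptor values was not tested. The log2 fold change was 0.49 (SE 0.228, 95% interval 0.015 to 0.96, edgeR p = 0.0438, adjusted p = 0.781). It was 0.29 without KO library 8 (edgeR p = 0.154) and 0.37 without that library and the 5 choroid plexus libraries (edgeR p = 0.0113, adjusted p = 0.546). In this last set WT libraries had 10.1, 12 and 14.9 CPM and KO libraries 10.1, 15.5 and 21.3 CPM.

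At the end of the pathway, the S6 kinase genes Rps6kb1 and Rps6kb2 had log2 fold changes of -0.090 and 0.022. KO library 8 had 40.3 CPM of Rps6kb1, against 48.6 to 66.8 CPM elsewhere, and without it Rps6kb1 had -0.048. Without that library and the 5 choroid plexus libraries the 2 genes had -0.013 and -0.10. Rps6kb1 was above Rps6kb2 per kilobase in 22 of 23 libraries. Eif4ebp1, an mTORC1-controlled inhibitor of translation initiation, had 1.27, 1.45 and 2.24 CPM in WT and 1.08, 1.66 and 2.38 CPM in KO. Its log2 fold change was 0.14 (SE 0.13, 95% interval -0.13 to 0.41, edgeR adjusted p = 0.81). Eif4ebp2, the form known as the main one in the brain, was above it in 23 of 23 libraries, by 2.77 to 5.13 times in WT (median 4.37) and 2.15 to 5.09 times in KO (median 3.26). Its log2 fold change was -0.10.

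**Figure D3:**
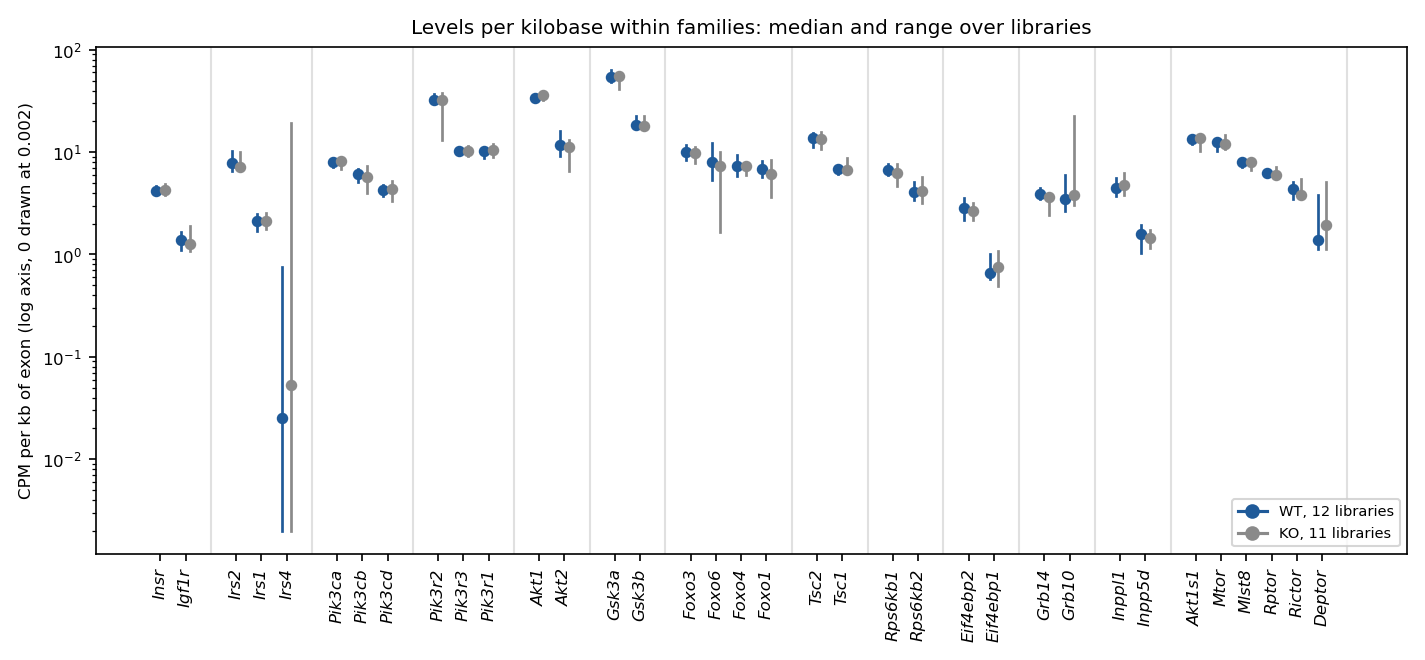
Level per kilobase of exon (y axis, log scale, CPM per kb) of family members and of the mTOR complexes, in WT (12 libraries) and KO (11 libraries); points are medians and lines run from the lowest to the highest library, with 0 drawn at 0.002. Of 22 neighbouring pairs in these orders, 12 had the same order in all 23 libraries, and Irs4 has the widest range.

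Of the 22 neighbouring pairs in the 13 families and complexes, 12 kept their order in all 23 libraries. It was 14 of 22 in the 22 libraries without KO library 8. With the longest transcript as length the orders themselves differed, and 17 of the 22 neighbouring pairs were the same ones. The Irs family ran Irs2 (7.81 ± 1.07 CPM per kb in WT, SD, n = 12), Irs1 (2.15 ± 0.232) and Irs4 (0.0926 ± 0.211). Irs2 was above Irs1 in 23 of 23 libraries, and Irs1 above Irs4 in 22, all but KO library 8. Insr was above Igf1r in 23 of 23 libraries, by 2.68 to 3.68 times in WT and 2.47 to 4.1 times in KO. Grb14 was above Grb10 in 12 of 23 libraries by all exons and in 20 of 23 by the longest transcript, so their order depended on the length used.

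In KO library 8 many members lay outside the levels of every other library. Of the 46 tested members, 24 lay outside the range of the other 22 libraries there, 10 above and 14 below. That is 52.2%, beside 45.8% of all tested genes. The highest count in any other library was 9, in KO library 22. Above the range were Insr, Grb10, Sos1, Pik3r3, Tsc1, Rptor, Deptor, Tbc1d4, Trib2 and Socs3, and Irs4 among the untested. Below it were Grb14, Pik3cb, Pik3r2, Ptpn1, Akt2, Gsk3a, Foxo1, Foxo3, Foxo6, Tsc2, Mlst8, Akt1s1, Rps6kb1 and Eif4ebp1. Relative to the median of the other libraries, Grb10 stood at 6.29 times, Socs3 at 4.06, Deptor at 3.4 and Sos1 at 1.7 times. Foxo6 stood at 0.209 times, Pik3r2 at 0.406, Foxo1 at 0.549 and Akt2 at 0.57 times. The part of hypothalamic tissue in these values was not tested. Insr, in contrast, was 66.7 CPM there against a highest value of 66.4 CPM elsewhere.

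Without KO library 8, 0 of 46 members passed the adjusted threshold (0.0126% of all genes did). One had an unadjusted p below 0.05, Rheb (edgeR p = 0.0499), or 2.17% beside 4.11% of all genes. In the 5 choroid plexus libraries, 0 of 47 members lay wholly above or wholly below the 17 remaining libraries, beside 2.22% of all tested genes.

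**Figure D4:**
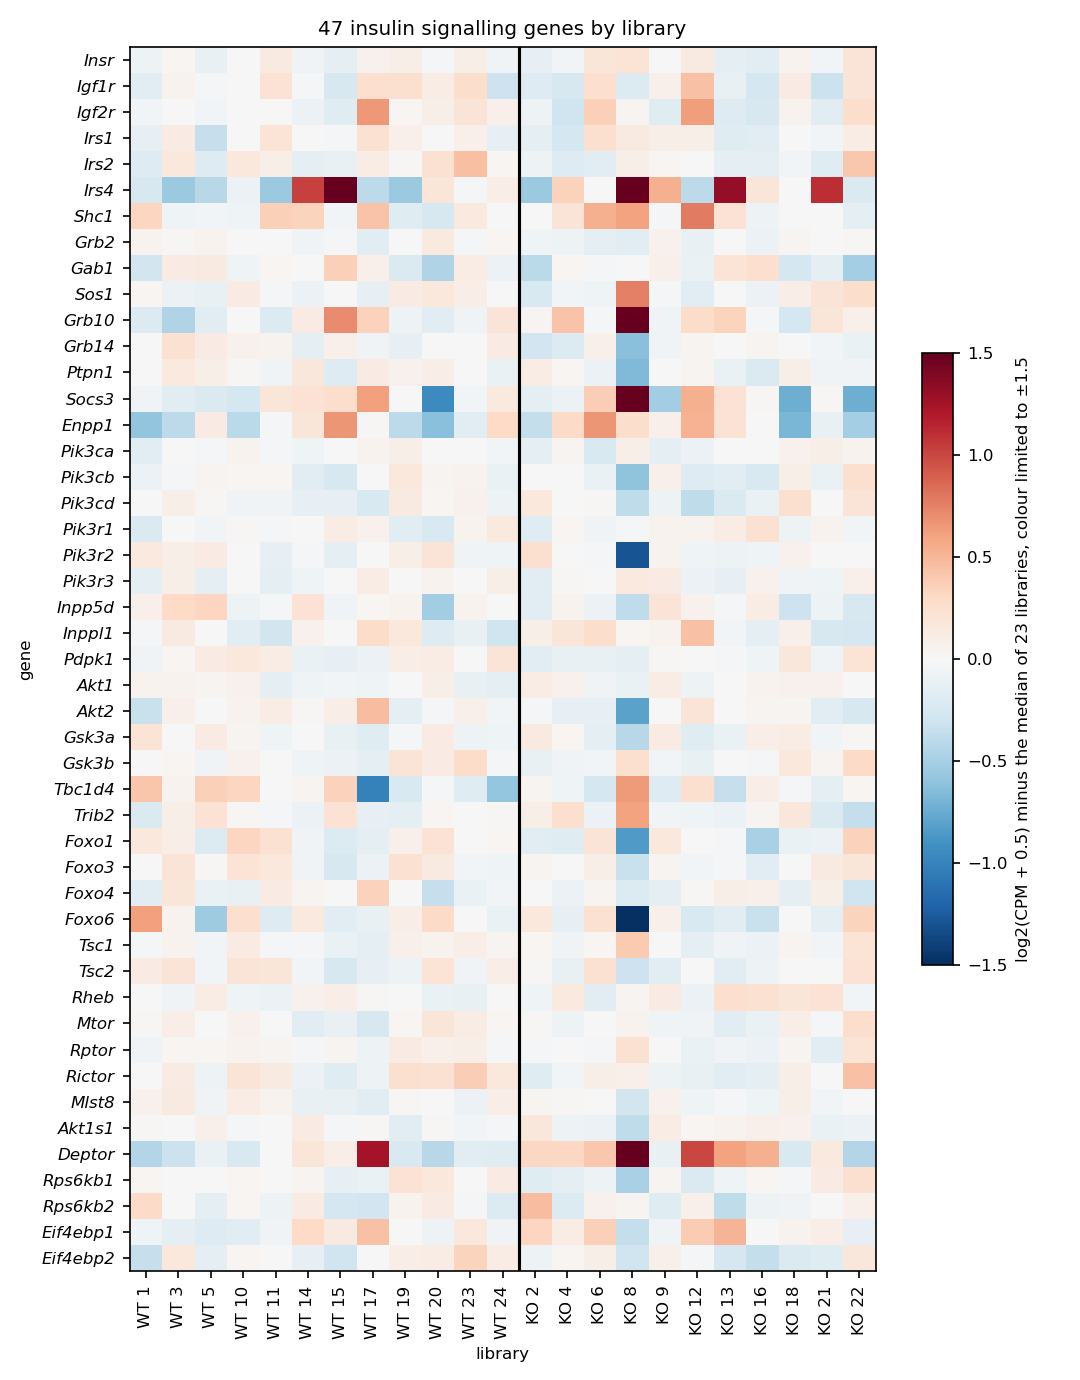
Each of the 47 members (rows, by role) in each library (columns, WT left of the line and KO right); colour is log2(CPM + 0.5) minus the gene's median over 23 libraries, limited to 1.5 either way. The column of KO library 8 holds the strongest colours, red for Irs4, Grb10, Deptor and Socs3 and blue for Foxo6 and Pik3r2.

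Other genes of the pathway were read from 5 lists of 105 genes, of which 98 were tested. None passed the adjusted threshold with edgeR (0 of 98, beside 0.0126% of all tested genes). At an unadjusted p below 0.05 there were 6 (6.12%, beside 5.74% of all tested genes), 2 higher and 4 lower in KO. Among 21 tested adaptors and phosphatases at the receptor, these were Flot1, a scaffold of membrane rafts (log2 fold change 0.12, SE 0.0521), Gab2, a docking protein like Gab1 (0.18, SE 0.0845), and Cblb, a ubiquitin ligase (-0.23, SE 0.108). Among 17 lipid kinases and phosphatases it was Pik3c2a, a class II PI3K (-0.14, SE 0.0593). Among 36 mTOR inputs and outputs these were Sesn1, a leucine sensor and mTORC1 inhibitor (-0.16, SE 0.0584), and Rragd, a GTPase that brings mTORC1 to the lysosome (-0.16, SE 0.0668). Each of these 6 had an edgeR adjusted p of 0.781. Sesn1 had 62.4, 72.1 and 85.5 CPM in WT and 48.3, 67.2 and 71.2 CPM in KO. Without KO library 8, 3 of 98 had an unadjusted p below 0.05 (3.06%, beside 4.11% of all tested genes), namely Flot1 (0.0339), Pik3c2a (0.0213) and Sesn1 (0.0228).

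FOXO target genes, which rise when AKT is less active, were split evenly. Of 14 tested, 7 were higher and 7 lower in KO, with a median log2 fold change of 0.0012 and a range from -0.19 for Bcl6 to 0.20 for Gadd45a, which were -0.10 and 0.12 without KO library 8. With edgeR, 0 of the 14 and 0 of 10 GLUT4 traffic genes had an unadjusted p below 0.05, beside 5.74% of all tested genes. The largest value in the GLUT4 list was 0.63 for Slc2a4, the gene of GLUT4, which was 0.40 without KO library 8. Medians were -0.031 for the adaptors, -0.015 for the lipid enzymes, 0.012 for the mTOR list and 0.025 for GLUT4 traffic, beside 0.0031 for all tested genes.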

How the data were processed

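Gene expression was deposited as a single table, in which the authors give estimated counts for 45706 genes in 23 libraries. The submitters' processing notes name bcl2fastq, STAR and mm10. The counting program, its use of strand and the annotation are not given in the sources used here. Between 24.6% and 27.2% of a library's non-zero values were fractional. Among the members, 10 had fractional values in some library (Irs1, Irs2, Grb2, Pik3cb, Inppl1, Akt2, Gsk3a, Tsc2, Mlst8 and Deptor), and 16 overlap exons of another gene in GENCODE M21, so reads may be shared.

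Values rounded to whole numbers entered edgeR 4.0.16 (R 4.3.3; filterByExpr, TMM, robust quasi-likelihood F test, Benjamini-Hochberg adjustment over 15828 genes). The script was tested on simulated data. CPM use TMM-scaled totals, and length is the union of annotated exons. Intervals cover the spread between libraries.

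Fold changes with tests are given for 11 fixed members, for those with an unadjusted p below 0.05, and for the 8 largest changes with a mean of at least 1 CPM. Members, lists and this rule were chosen with earlier results of these data known. Other members are given as values. Promoter motifs, Rheb and Grb14 were singled out after their values were seen. Alternatives were RLE size factors, DESeq2 1.42.0, voom with quality weights (limma 3.58.1), no filter, a filter on a mean of 50 counts, a choroid plexus score (mean log2 CPM of its markers) as covariate, a threshold of 0.10, another length, and leaving out libraries. WT and KO share no replicate numbers.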

Additional observations from a re-analysis of the deposited data

How the results depend on the processing

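The count of members called was 0 in every alternative run, the threshold of 0.10 included, and in each of the 23 fits without 1 library (0 to 0). The count at an unadjusted p below 0.05, 2 with edgeR, was 1 with DESeq2 and 9 with voom (19.6% of members, beside 17.4% of all genes), and ran from 0 to 6 across the 23 fits, the highest without KO library 22 (beside 11.3% of all genes). Irs4 was among these under both other filters, through KO library 8 alone. The members' median log2 fold change ran from -0.028 to -0.0090 across the 23 fits. It was -0.041 with voom (0.0010 over all tested genes). Without KO library 8 and the 5 choroid plexus libraries it was -0.030 (-0.0065 over all tested genes). Of 117 values of named genes in the other alternatives, 109 kept their direction and 8 changed sign, none of them called: with voom, Insr -0.024, Gsk3b -0.035 and Socs3 -0.050; with the choroid plexus covariate, Mtor 0.0095; without KO library 8 and the 5 choroid plexus libraries, Insr -0.012, Shc1 -0.0007, Gsk3b -0.0021 and Socs3 -0.19. The cause was not tested. Grb10 was 0.60 with edgeR, 0.075 with DESeq2 and 0.20 with voom. Across the 23 fits Grb10 ran from 0.082 to 0.67 and Deptor from 0.29 to 0.68, both lowest when KO library 8 was left out. Other values moved by over 1.5 times with 1 library, none called: Insr ran from 0.011 to 0.050, Igf1r from -0.10 (without KO library 12) to -0.017 (without KO library 21), Irs2 from -0.14 to -0.046, Shc1 from 0.059 to 0.18, Akt2 from -0.17 to -0.072, Foxo1 from -0.18 to -0.067, Foxo3 from -0.068 to -0.012, Foxo6 from -0.22 to -0.059, Eif4ebp1 from 0.078 to 0.20 and Enpp1 from 0.071 (KO library 6 left out) to 0.25 (WT library 15 left out). In these fits Irs1 ran from -0.054 to 0.0067, Gsk3b from -0.023 to 0.030, Mtor from -0.035 to 0.014 and Socs3 from -0.082 to 0.37. Rheb had adjusted p from 0.147 to 0.967 over all alternatives. Of 22 neighbouring pairs by level, 12 had 1 order in all libraries, and 14 without KO library 8; with the longest transcript 15 of 22 did, but only 17 of these pairs were the same. No paired analysis was possible because the genotypes share no replicate number. Counts were low for Socs3 and Eif4ebp1, and for Irs4 outside KO library 8. Whether depth limited their values was not tested.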
